A study of Mus musculus with 14 samples.

Results

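The transcripts described here are those of Gjb1 and Gjb2, which encode connexin 32 and connexin 26, the gap junction proteins of hepatocytes. Every oligonucleotide whose name or symbol in the array files denotes either gene was taken, which gave 2 of the 284 mouse oligonucleotides on the array, 1 for each gene. The array covers 272 different genes. The oligonucleotides were picked by name and not by measured value, though the genes were chosen with earlier results of these data known. Gjb1 was spotted at array index 62 and lies on chromosome X, and Gjb2 was spotted at array index 38 and lies on chromosome 14.

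RNA came from the liver of 14 C57BL/6 mice aged 15 to 20 weeks, 7 labelled mthr-/- and 7 labelled wild type, with 1 single-colour array per animal. The labels do not spell the abbreviation out, and although the tissue is labelled liver, the cell type is labelled primary hepatocytes, without saying whether cells were isolated. The mthr-/- animals received 2% betaine in their drinking water, from 5 weeks after weaning, and no such supplement is stated for the wild type, so an effect of genotype and one of betaine cannot be told apart. All animals ate standard chow. The mthr-/- group held 4 females and 3 males, and the wild type group 2 females and 5 males. By their array names the slides form 4 series, here A, B, C and D. Of the mthr-/- animals, 4 were measured on series A, 2 on B and 1 on D. Of the wild type animals, 1 was measured on series A, 4 on B and 2 on C.

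Connexins assemble into channels that join the cytoplasm of neighbouring cells and let ions, cyclic nucleotides, inositol phosphates and small metabolites pass. In rodent liver connexin 32 is the main gap junction protein of hepatocytes across the lobule, and connexin 26 is richer around the portal tracts. Coupling through these channels carries calcium waves and hormone responses from cell to cell. In humans, mutations of GJB1 cause an X-linked neuropathy and mutations of GJB2 a common inherited deafness.

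The sequences around the transcription starts are shown because the signals of both genes were compared across animals below. RefSeq lists 1 start window for Gjb2 and 4 for Gjb1 on the build GRCm38.p6, each with 250 bases before and 50 bases after an annotated start. The windows of Gjb2 (chr14:57104653-57104952, minus strand) and the windows 2 and 4 of Gjb1 (chrX:101376985-101377284 and chrX:101383482-101383781, plus strand) are written 5′ to 3′ with capitals for motif matches on either strand.
Gjb2, its window: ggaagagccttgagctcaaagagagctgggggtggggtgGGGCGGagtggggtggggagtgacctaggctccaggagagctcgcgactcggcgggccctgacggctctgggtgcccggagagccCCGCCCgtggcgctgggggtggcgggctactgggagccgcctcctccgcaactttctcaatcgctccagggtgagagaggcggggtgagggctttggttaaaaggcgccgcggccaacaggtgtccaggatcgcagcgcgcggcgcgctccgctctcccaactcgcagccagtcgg
Gjb1, window 2: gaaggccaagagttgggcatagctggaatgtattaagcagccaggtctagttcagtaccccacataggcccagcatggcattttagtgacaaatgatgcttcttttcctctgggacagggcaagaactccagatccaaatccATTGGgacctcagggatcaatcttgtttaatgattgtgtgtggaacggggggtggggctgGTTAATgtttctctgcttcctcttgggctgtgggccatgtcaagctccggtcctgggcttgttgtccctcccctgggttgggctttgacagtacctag
Gjb1, window 4: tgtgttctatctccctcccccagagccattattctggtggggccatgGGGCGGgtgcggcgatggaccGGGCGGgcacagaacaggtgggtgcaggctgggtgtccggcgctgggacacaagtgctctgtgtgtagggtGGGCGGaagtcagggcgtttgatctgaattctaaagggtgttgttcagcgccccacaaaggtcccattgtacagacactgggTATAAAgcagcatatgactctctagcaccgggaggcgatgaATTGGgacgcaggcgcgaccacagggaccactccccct
The motifs searched were the GC box GGGCGG, the TATA box TATAAA, the CCAAT box CCAAT and the core of the HNF1 motif, GTTAAT, and none of these overlap one another in the windows shown. The Gjb2 window held 2 GC boxes and none of the other 3 motifs. Window 4 of Gjb1 held 3 GC boxes, 1 TATA box and 1 CCAAT box, and window 2 held 1 CCAAT box and 1 HNF1 core. Of the Gjb1 windows not shown, window 1 held 1 CCAAT box and window 3 held none of the motifs. Of 32851 windows of the same length, 35.7% held a GC box, 13.6% a TATA box, 37.4% a CCAAT box and 7.10% the HNF1 core. The share of G and C was 70.0% in the Gjb2 window, and 43.3%, 51.7%, 55.0% and 60.0% in the 4 Gjb1 windows, against a median of 52.7% over all windows. These matches are a description of the letters only.

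The arrays differed in brightness. The sum of background-subtracted intensity over mouse oligonucleotides lay between 16029 and 82510 on the mthr-/- arrays and between 14443 and 56948 on the wild type arrays. An oligonucleotide was called detected on an array when its mean background-subtracted intensity lay above the mean plus 2 SD of the plant control spots of that array, a limit that ran from 1.36 to 8.4 on the mthr-/- arrays and from -0.21 to 9.81 on the wild type arrays. The lowest limit, on wild type 2, was below 0, so it is close to no limit at all. By this limit 123 to 186 oligonucleotides were detected on the mthr-/- arrays and 70 to 155 on the wild type arrays, with the 70 on wild type 6. The hepatocyte genes Alb (albumin), Apoa1, Fabp1, Apoc3, Arg1 and G6pc were detected on 14 of 14 arrays, Cps1 on 13 and Apob on 1. Of the markers of other liver cells, the endothelial genes Cdh5, Pecam1 and Vcam1 were detected on 0, 1 and 9 arrays and Krt19 of bile duct cells on 1. Of the stellate cell and fibroblast list, Fn1, which hepatocytes also make, was detected on 13 arrays, Vim on 10, Col3a1 on 8, Timp1 on 7, and Col1a1 and Col1a2 on 2 each. The stellate and fibroblast oligonucleotides together held 0.079% to 0.66% of the summed intensity on the mthr-/- arrays and 0.17% to 0.48% on the wild type arrays. No Kupffer cell marker of the list was on the array. The 8 hepatocyte marker oligonucleotides held 24.7% to 36.4% of the summed intensity on the mthr-/- arrays and 9.71% to 42.3% on the wild type arrays, lowest on wild type 6 and highest on wild type 1. The 5 muscle oligonucleotides, for genes such as Tcap of the sarcomere, held 1.42% on mthr-/- 6 and 3.43% on wild type 6, and at most 0.26% on the others.

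On 2 of the 14 arrays neither connexin was detected. Each gene was detected on 6 of 7 mthr-/- arrays and on 6 of 7 wild type arrays, and the arrays without detection were mthr-/- 1 and wild type 6 for both. The counts were the same with a limit of 3 SD. Over all mouse oligonucleotides, 102 of 284 were detected on at least 12 arrays and 54 on all 14. The other connexins on the array were near or below the limit. Gja1, connexin 43, which is found in liver mainly outside hepatocytes, was detected on 2 mthr-/- arrays and 1 wild type array, and Gjb5, a connexin gene of skin and placenta, on 0 and 1.

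On mthr-/- 1 the signal of both genes differed between the blocks of the array. Each oligonucleotide was printed as 4 spots, 1 in each of 4 blocks, and on this array block 3 repeats block 2 for 288 of 288 oligonucleotides and was counted once. For Gjb1 the spot of block 1 read 151 after background subtraction, whereas blocks 2 and 4 read 4 and 2. For Gjb2 block 1 read 51, whereas blocks 2 and 4 both read 0. The authors had blanked both block 1 spots, so the values of mthr-/- 1 used here, 3.00 for Gjb1 and 0 for Gjb2, come from blocks 2 and 4 alone, below the limit of 6.08.

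The neighbours of both genes on that array showed the same split between blocks. Between array indices 26 and 92, which enclose both genes, 20 of 37 mouse oligonucleotides read at least 50 in block 1. Of these, 19 read under 25% of that in blocks 2 and 4, and the authors had blanked 19 of the block 1 spots in the stretch. The medians of those 20 were 209 in block 1 and 4.5 in blocks 2 and 4. Outside the stretch 5 of 70 such oligonucleotides fell under 25%, and the medians were 225 in block 1 and 183 in blocks 2 and 4. The limits of the stretch were set with these values known.

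**Figure D1:**
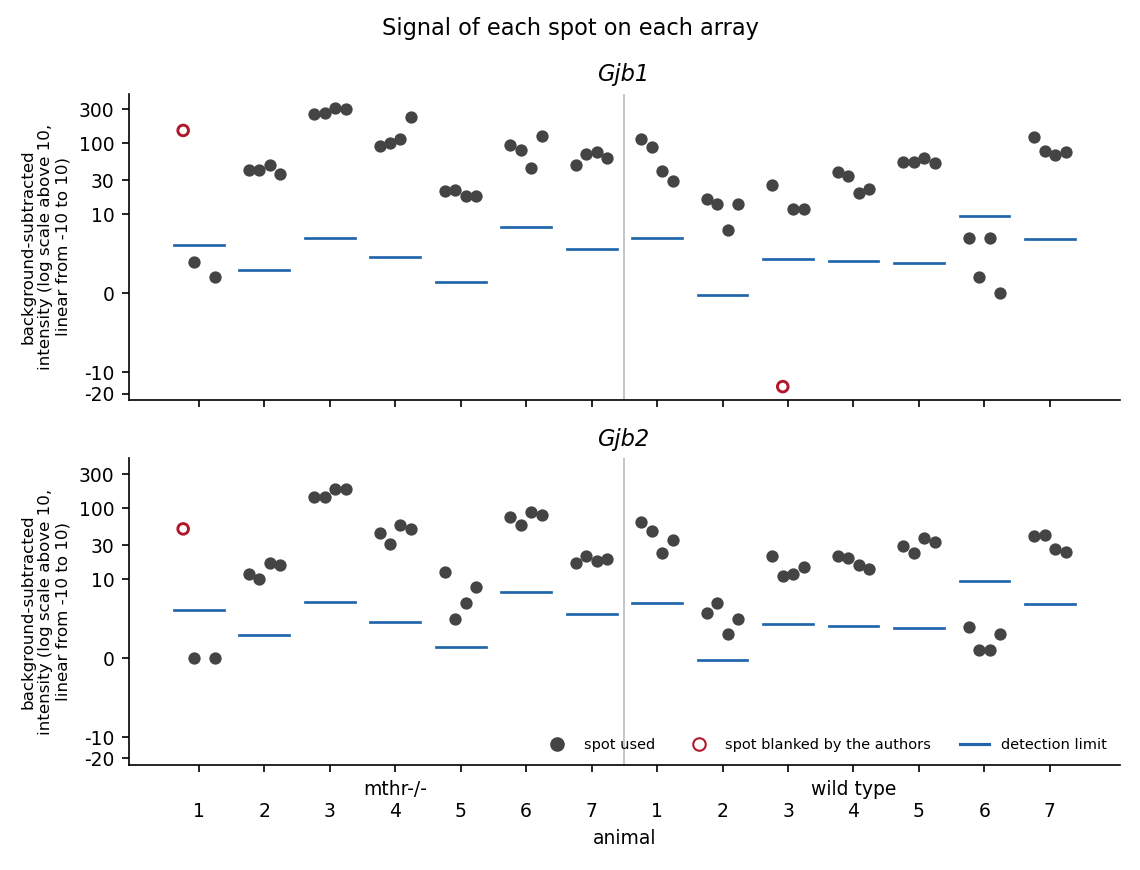
Background-subtracted intensity of each Gjb1 (top) and Gjb2 (bottom) spot on the 7 mthr-/- arrays (left) and the 7 wild type arrays (right), on an axis that is linear near 0 and logarithmic above and below; filled points are spots used, open red points are spots that the authors blanked, blue lines are the detection limit of each array, and the repeated block of mthr-/- 1 is left out. On mthr-/- 1 the open points at 151 and 51 stand above the limit and the filled points below it, and on wild type 6 all 4 spots of each gene lie below it.

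The spread among the spots differed between the other arrays. On mthr-/- 3, the brightest array, the 4 Gjb1 spots ran from 254 to 310 and the 4 Gjb2 spots from 142 to 188. On mthr-/- 5, one of the dimmest, Gjb1 ran from 18 to 22 and Gjb2 from 5 to 12.6. The widest Gjb1 spread relative to its mean among arrays that detected it was on wild type 1, with 114, 87, 40 and 29 in blocks 1 to 4. On wild type 3 one Gjb1 spot, with an intensity of 217 below its local background of 233, was blanked by the authors and left out. On wild type 6 Gjb1 read 0 to 7 and Gjb2 1 to 4, below the limit of 9.81 in all 4 blocks. This is also the array with the fewest oligonucleotides detected, the lowest share of hepatocyte markers and the highest share of muscle markers, whose part in the low connexin values was not tested.

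Background-subtracted intensity, the mean of the spots on a linear scale, followed the brightness of the arrays. Gjb1 read 3.00, 42.5, 284.75, 133.75, 19.85, 86.5 and 64.0 on mthr-/- 1 to 7, and 67.5, 13.1, 16.7, 29.25, 56.0, 4.00 and 85.25 on wild type 1 to 7. The groups overlapped, and mthr-/- 3, 4 and 6 were above all wild type arrays. Gjb2 read 0, 13.75, 164.75, 45.75, 8.4, 75.0 and 18.75 on mthr-/- 1 to 7, and 42.75, 5.18, 14.75, 17.75, 30.75, 2.25 and 33.25 on wild type 1 to 7. Again mthr-/- 3, 4 and 6 were above all wild type arrays. Across the 14 arrays the rank correlation of this intensity with the summed intensity of the array was 0.74 for Gjb1 and 0.77 for Gjb2, and after normalization it was 0.28 and 0.47. Levels are therefore compared between animals only after normalization.

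Gjb1 gave the stronger signal of the pair. It read higher than Gjb2 on 12 of the 12 arrays that detected both. The ratio of Gjb1 to Gjb2 intensity was 3.09, 1.73, 2.92, 2.36, 1.15 and 3.41 on mthr-/- 2 to 7, and 1.58, 2.53, 1.13, 1.65, 1.82 and 2.56 on wild type 1 to 5 and 7. The mean was 2.45 ± 0.87 in mthr-/- and 1.88 ± 0.57 in wild type (SD, n = 6 each). The groups overlapped from 1.15 to 2.56, and mthr-/- 2, 4 and 7 were above all wild type arrays. The ratio compares the brightness of different oligonucleotides, so it gives no ratio of transcript numbers, and no lengths were given to put both on one scale. On mthr-/- 1 the blanked spots of block 1 also read higher for Gjb1, 151 against 51.

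**Figure D2:**
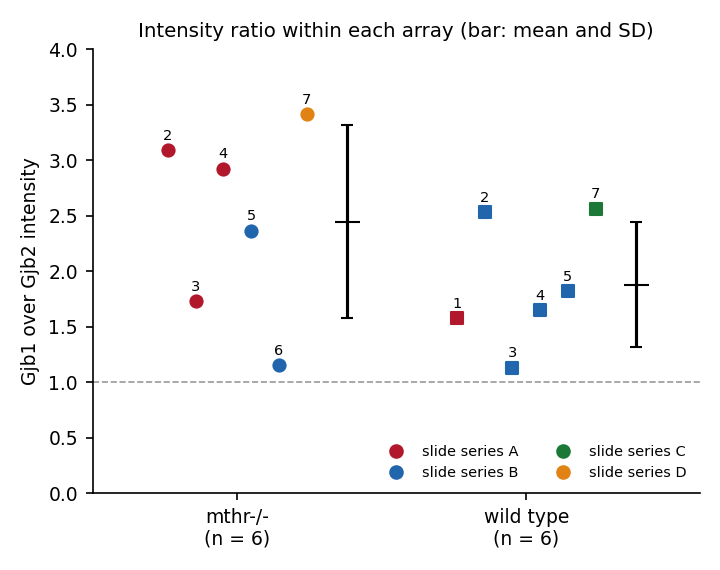
Ratio of Gjb1 to Gjb2 background-subtracted intensity within each array that detected both, for 6 mthr-/- arrays (circles, left) and 6 wild type arrays (squares, right), numbered by animal and coloured by slide series, with the mean and SD as bars and a dashed line at 1. All 12 points lie above 1, and the ranges overlap, 1.15 to 3.41 in mthr-/- and 1.13 to 2.56 in wild type.

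On the log2 scale after normalization, the difference of Gjb1 minus Gjb2 on the 12 arrays that detected both was 0.29 ± 0.15 in mthr-/- and 0.18 ± 0.09 in wild type (SD, n = 6 each). The mthr-/- mean was higher by 0.106 (SE 0.071). With all 14 arrays, which adds mthr-/- 1 and wild type 6, where neither gene was detected and the difference is no measure of the ratio, it was higher by 0.086 (SE 0.073). With mthr-/- 1 read from its block 1 spots it was higher by 0.147 (SE 0.067). Without wild type 6, mthr-/- 1 and mthr-/- 6 the mthr-/- mean was higher by 0.157 (SE 0.054). Both values were more than 2 SE from 0. Of the arrays left out, mthr-/- 6 detected both genes and had the lowest difference among such mthr-/- arrays, 0.03. Leaving out mthr-/- 6 alone gave 0.123 (SE 0.068). With slide series in the fit, the genotype difference of the ratio was -0.0002 (SE 0.088) over 14 arrays. Without mthr-/- 1 it was 0.029 (SE 0.066) in that fit. Within series A, mthr-/- 1 included, it was 0.018, and within series B -0.011. In series A, Gjb1 minus Gjb2 was 0.03 on mthr-/- 1, 0.33, 0.32 and 0.43 on mthr-/- 2 to 4, and 0.26 on wild type 1. The ratio was given no test. This scale includes an offset of 50 intensity units, which draws the differences of dim oligonucleotides towards 0. Without the offset Gjb1 minus Gjb2 was 0.52 ± 0.26 in mthr-/- and 0.33 ± 0.16 in wild type (SD, n = 6 each).

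The comparison of genotypes asked whether either connexin transcript differed between mthr-/- and wild type liver. Gjb1 had log2 normalized intensities of 6.78, 7.27, 7.46, 7.44, 7.19, 7.06 and 7.36 in mthr-/- 1 to 7, and of 7.52, 7.11, 6.99, 7.18, 7.14, 6.84 and 7.28 in wild type 1 to 7. The groups overlapped: the highest value of all was wild type 1 and the lowest mthr-/- 1, the array with the lost spots, and 5 of 7 mthr-/- values lay above the wild type mean. The means were 7.22 ± 0.24 in mthr-/- and 7.15 ± 0.21 in wild type (SD, n = 7 each). The genotypes thus differed by 0.071 (SE 0.118), that is 1.05-fold with a 95% interval of 0.88 to 1.25, and limma's adjusted p was 0.860.

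Gjb2 was closer still between the genotypes. It had log2 normalized intensities of 6.75, 6.95, 7.14, 7.00, 6.97, 7.03 and 6.96 in mthr-/- 1 to 7, and of 7.26, 6.93, 6.96, 7.03, 6.97, 6.78 and 6.97 in wild type 1 to 7. Again wild type 1 was highest and mthr-/- 1 lowest, the groups overlapped, and 3 of 7 mthr-/- values lay above the wild type mean. The means were 6.97 ± 0.12 in mthr-/- and 6.99 ± 0.14 in wild type (SD, n = 7 each). The genotypes thus differed by -0.015 (SE 0.070), that is 0.99-fold with a 95% interval of 0.89 to 1.10, and limma's adjusted p was 0.915. In RNA taken from many cells at once, fewer cells that make a transcript and less of it per cell cannot be told apart.

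Neither connexin passed the test, and limma called 0 of 139 tested oligonucleotides between the genotypes (0%), with 14 (10.1%) at an unadjusted p below 0.05 and neither connexin among them. The intervals above hold on the scale with the offset. Without it the Gjb1 difference was 0.118 (SE 0.221), a 1.09-fold difference with an interval of 0.78 to 1.51. The Gjb2 difference was then -0.030 (SE 0.154), 0.98-fold with an interval of 0.78 to 1.23. That scale still held differences small: on mthr-/- 2 Gjb1 read 3.09 times Gjb2, but their log2 difference was 0.62. With plain background subtraction floored at 1, Gjb1 differed by 0.16 (SE 0.78), an interval of 0.35 to 3.53-fold. Gjb2 then differed by -0.14 (SE 0.79), an interval of 0.28 to 2.91-fold. The narrower intervals therefore set no bound on the fold difference in plain intensity.

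**Figure D3:**
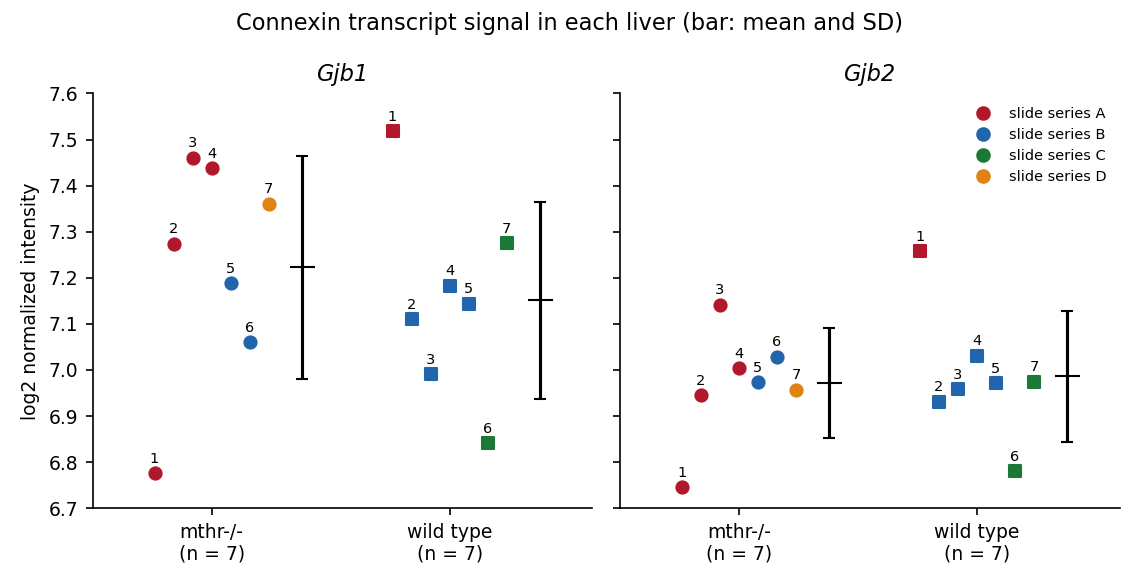
Log2 normalized intensity of Gjb1 (left panel) and Gjb2 (right panel) in 7 mthr-/- livers (circles) and 7 wild type livers (squares), numbered by animal and coloured by slide series, with the mean and SD of each group as bars. In both panels mthr-/- 1 is the lowest and wild type 1 the highest, and the remaining points of the groups overlap.

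The array with the lost spots carried weight in these values. Without mthr-/- 1 the Gjb1 difference was 0.145 (SE 0.101) and the Gjb2 difference 0.022 (SE 0.064). When mthr-/- 1 was instead read from the block 1 spots that the authors had blanked, its log2 normalized Gjb1 value was 7.53. This was above all other arrays, of which wild type 1 was highest at 7.52. Its Gjb2 value was 7.08, below wild type 1 at 7.26 and mthr-/- 3 at 7.14. Only the connexin values of mthr-/- 1 were replaced in this way, and its other oligonucleotides kept theirs. The genotype difference was then 0.179 (SE 0.099, limma's adjusted p 0.538) for Gjb1 and 0.032 (SE 0.061, limma's adjusted p 0.857) for Gjb2. Without wild type 1 the Gjb1 difference was 0.132 (SE 0.110) and the Gjb2 difference 0.030 (SE 0.059). Without wild type 6, the other array that detected neither gene, the differences were 0.019 (SE 0.115) and -0.050 (SE 0.066). Without wild type 6, mthr-/- 1 and mthr-/- 6 they were 0.141 (SE 0.090) for Gjb1 and -0.016 (SE 0.063) for Gjb2.

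Slide series moved with genotype, since 4 of 7 mthr-/- arrays but 1 of 7 wild type arrays were in series A. Within series A the mthr-/- mean of Gjb1 was 7.24 and the single wild type value 7.52, a difference of -0.28, or -0.13 without mthr-/- 1. Within series B the means were 7.12 in 2 mthr-/- and 7.11 in 4 wild type animals, a difference of 0.018. For Gjb2 the difference was -0.30 in series A, -0.23 there without mthr-/- 1, and 0.028 in series B. With slide series as a block the difference was -0.094 for both genes, with an SE of 0.149 for Gjb1 and 0.089 for Gjb2, and the Gjb1 difference thus changed sign. Both stayed within 2 SE of 0.

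Without normalization and with reference gene centring the median of all tested oligonucleotides shifted, and the connexins with it. Without normalization between arrays Gjb1 differed by 0.93 and Gjb2 by 0.83 (SE 0.42 each, limma's adjusted p 0.102 each), while the median of all tested oligonucleotides shifted by 0.81. Centred on Gapdh and Ppia, the reference genes detected on all arrays, they differed by 0.52 (SE 0.26) and 0.43 (SE 0.29) with a median shift of 0.40 and limma's adjusted p of 0.332 for both. The differences of both genes lay near these shifts, whose cause was not tested. Limma's unadjusted p was 0.027 for Gjb1 and 0.045 for Gjb2 without normalization, and 0.0497 and 0.143 with the reference genes. With median centring, where the median shift was -0.049, Gjb2 differed by -0.021 and Gjb1 by 0.070 (SE 0.212). With cyclic loess, where the median shift was -0.018, Gjb2 differed by -0.012 and Gjb1 by 0.108 (SE 0.093). Gjb1 thus did not take the sign of the median in these settings.

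**Figure D4:**
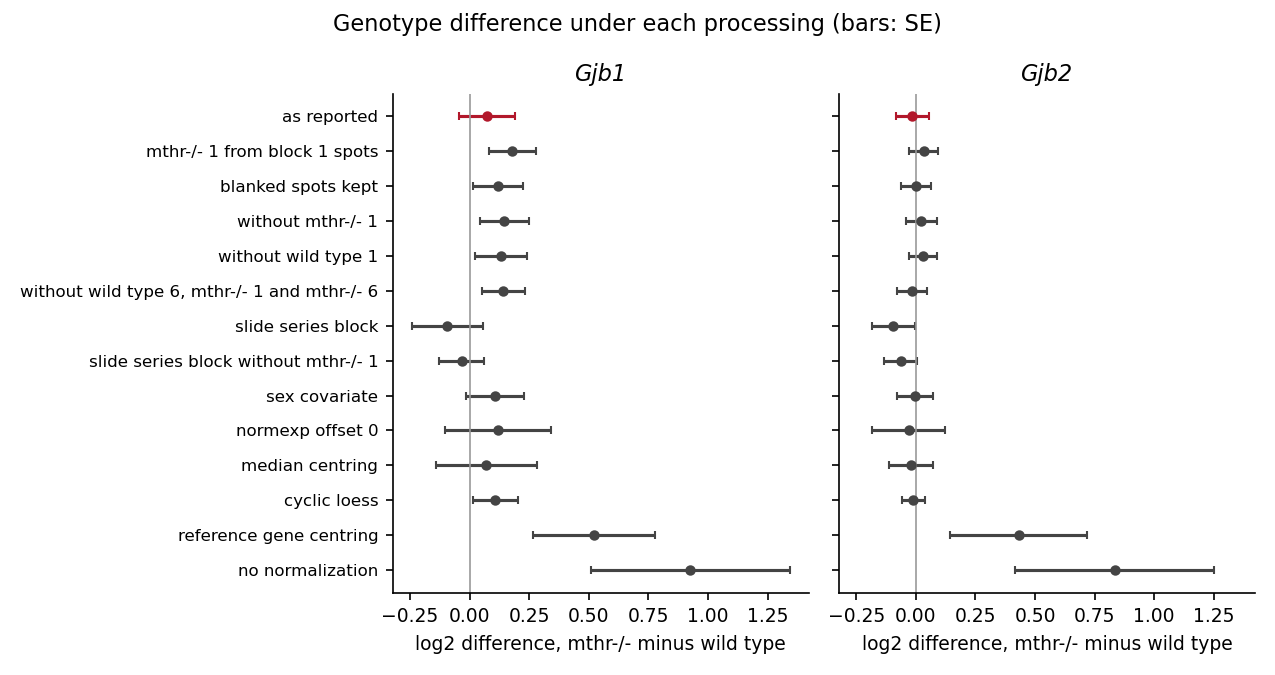
Log2 difference of mthr-/- minus wild type for Gjb1 (left) and Gjb2 (right) under the processing reported (red) and 13 alternatives (black), with bars of 1 SE and a line at 0. The points lie within 0.2 of 0 except with centring on reference genes and without normalization between arrays, where all oligonucleotides shifted by a median of 0.40 and 0.81.

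The authors' deposited table compares the genotypes by the median of their scaled intensity. For Gjb1 the authors' deposited table gives 34.4 in mthr-/- and 29.9 in wild type, a ratio of 1.15 (log10 0.060), and for Gjb2 17.9 in mthr-/- and 12.35 in wild type, a ratio of 1.45 (log10 0.162). Among the 103 oligonucleotides of the authors' deposited table, Gjb2 ranks 28 and Gjb1 52 from the highest ratio, and the median ratio is 1.15. The mthr-/- medians of the authors' deposited table equal those of the 6 arrays other than mthr-/- 7, so they include mthr-/- 1 at 1.87 for Gjb1 and 0 for Gjb2. Computed in the same way from the deposited values of all 7 mthr-/- arrays, the ratio was 1.37 for Gjb1 and 1.08 for Gjb2. Without mthr-/- 1 and 7 the ratios were 1.39 and 1.83, and without mthr-/- 1 alone 1.38 and 1.45.

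The signals of Gjb1 and Gjb2 were correlated across the animals. Over 14 animals Pearson's r of the log2 normalized intensities was 0.826 (permutation p 0.00031, adjusted over 4 relations 0.00124) and Spearman's rho 0.662 (permutation p 0.0130, adjusted 0.0261). In the 7 mthr-/- animals r was 0.784 (exact permutation p 0.0474, adjusted 0.0632) and rho 0.536 (exact permutation p 0.236). In the 7 wild type animals r was 0.930 (exact permutation p 0.00754, adjusted 0.0151) and rho 0.929 (exact permutation p 0.00675, adjusted 0.0261). For comparison, the median r over all 9591 pairs of tested oligonucleotides was -0.014, as a description. All tests were two-sided.

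Much of this correlation lay in a few arrays. Without mthr-/- 1 and wild type 6, the 2 animals farthest from the Gjb1 median and the 2 that detected neither gene, r was 0.634 (permutation p 0.0193) and rho 0.462 (permutation p 0.136) in 12 animals. Without wild type 1 as well, r was 0.446 (permutation p 0.172) in 11 animals. In the 6 mthr-/- animals other than mthr-/- 1, r was 0.331 (exact permutation p 0.531). Within slide series B, 6 arrays, r was 0.208 (exact permutation p 0.690), and series A held too few arrays for a value. Other settings left r higher. Without mthr-/- 1 alone it was 0.757 (permutation p 0.0024), and with mthr-/- 1 read from its block 1 spots 0.759. On the residuals of a fit with genotype and slide series r was 0.877, and 0.724 when mthr-/- 1 was also left out. In wild type without wild type 6 r was 0.882 (n = 6, exact permutation p 0.0417), and without wild type 1 it was 0.831 (n = 6, exact permutation p 0.0458).

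**Figure D5:**
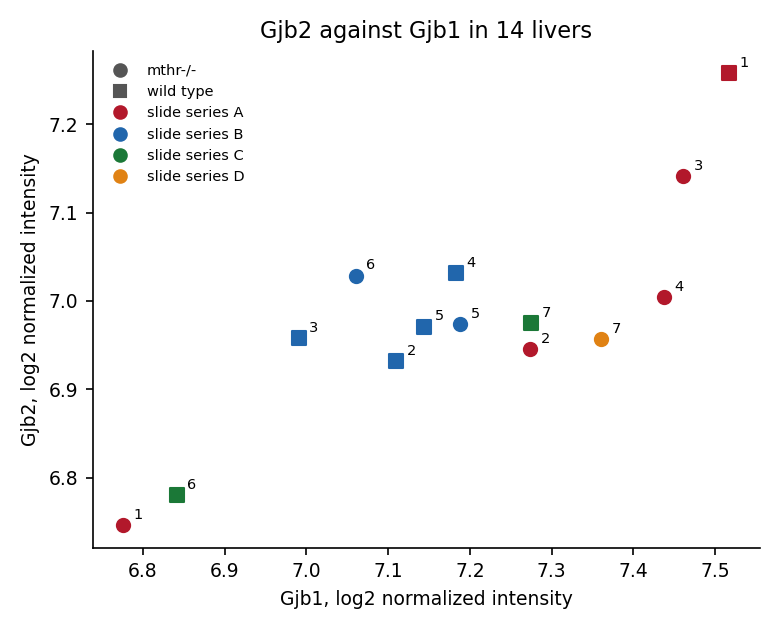
Gjb2 against Gjb1, both as log2 normalized intensity, in 7 mthr-/- livers (circles) and 7 wild type livers (squares), numbered by animal and coloured by slide series. The 2 arrays that detected neither gene, mthr-/- 1 and wild type 6, lie at the lower left, wild type 1 and mthr-/- 3 at the upper right, and the 6 arrays of series B show little slope between them.

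Among the other 138 tested oligonucleotides, Gjb2 ranked 2nd in likeness to Gjb1 by Pearson's r over 14 arrays, and Gjb1 ranked 3rd in likeness to Gjb2. The 5 other genes most like Gjb1 were Agt, the angiotensin precursor gene (r 0.839), Calr, an endoplasmic reticulum chaperone gene (0.822), Aldh3a2, which oxidises fatty aldehydes (0.814), Ivd, an enzyme of leucine breakdown (0.802), and Abcb11, the bile salt export pump (0.720). Those most like Gjb2 were Abcb11 (0.874), Ivd (0.832), Agt (0.812), the fetuin gene Ahsg (0.754) and the actin gene Actg1 (0.730). These values are descriptions over the same 14 arrays.

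The likeness moved with position on the array. All 5 genes most like Gjb1 and 3 of the 5 most like Gjb2 were spotted between indices 26 and 92, the stretch with lost spots on mthr-/- 1. The median r of Gjb1 was 0.46 with the 25 other tested oligonucleotides in that stretch and -0.24 with the 112 outside it. Without mthr-/- 1 these medians were 0.017 and -0.16. For Gjb2 they were 0.35 inside and -0.22 outside with all arrays, and -0.055 and -0.19 without mthr-/- 1. Without mthr-/- 1 and wild type 6 r with Gjb1 was 0.725 for Agt, 0.743 for Calr, 0.754 for Aldh3a2, 0.717 for Ivd and 0.468 for Abcb11. Whether shared position accounts for the likeness of Gjb1 and Gjb2 themselves was not tested.

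Sex made no difference that passed the test for either gene. Gjb1 averaged 7.13 ± 0.25 in 6 females and 7.23 ± 0.21 in 8 males, and Gjb2 6.95 ± 0.11 in females and 7.00 ± 0.14 in males (SD). With genotype in the model, females minus males differed by -0.122 (SE 0.124), a 95% interval of -0.39 to 0.15, for Gjb1 and by -0.042 (SE 0.076), an interval of -0.21 to 0.12, for Gjb2. Limma's adjusted p was 0.999 for both, and 0 of 139 oligonucleotides (0%) were called, with 3 (2.16%) at an unadjusted p below 0.05. The females include mthr-/- 1. Read from its block 1 spots, the sex differences were -0.019 (SE 0.109) for Gjb1 and 0.003 (SE 0.067) for Gjb2. The genotype difference of females minus that of males was -0.058 (SE 0.260) for Gjb1 and -0.098 (SE 0.156) for Gjb2, limma's adjusted p 0.986 for both.

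Slide series A and B, which hold both genotypes, were compared as a batch. Gjb1 averaged 7.29 ± 0.30 in the 5 arrays of series A and 7.11 ± 0.08 in the 6 of series B, and Gjb2 7.02 ± 0.19 in series A and 6.98 ± 0.04 in series B (SD). With genotype in the model, series A minus B was 0.224 (SE 0.149, limma's adjusted p 0.315) for Gjb1 and 0.081 (SE 0.089, limma's adjusted p 0.533) for Gjb2, while 11 of 139 oligonucleotides (7.91%) were called and 37 (26.6%) had an unadjusted p below 0.05, neither connexin among them. With mthr-/- 1 read from its block 1 spots, Gjb1 differed by 0.342 (SE 0.090, limma's adjusted p 0.038) and was among 15 called (10.8%). Only the connexins of mthr-/- 1 were read from block 1. Its other oligonucleotides kept their values, so this count does not treat them and the connexins alike. Without wild type 6, mthr-/- 1 and mthr-/- 6, Gjb1 differed by 0.310 (SE 0.077, limma's adjusted p 0.038) and was among 20 called (14.4%). A series is a name in the labels, and what differed between series is not given in the sources used here.

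Of 39 cell junction genes in the list used, 8 were on the array with 9 oligonucleotides, and 4 of these oligonucleotides were tested. Limma called none between the genotypes, with 2 higher and 2 lower in mthr-/-, a median difference of 0.005 and none at an unadjusted p below 0.05, against a median of -0.006 over all 139 tested. Beside the connexins these were the adhesion molecules Icam1, at -0.010 (SE 0.032), and Vcam1, at 0.020 (SE 0.037). The second Icam1 oligonucleotide, the integrin gene Itgb1 and the endothelial cadherin gene Cdh5 were detected on 1, 2 and 0 arrays and not tested.

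Genes with a known place in the lobule were taken as a frame for connexin 26. All 5 periportal genes on the array were tested, and none was called by limma or had an unadjusted p below 0.05. They were the urea cycle genes Arg1, at -0.16 (SE 0.28), and Cps1, at 0.22 (SE 0.31), the glutaminase gene Gls2, at 0.083 (SE 0.101), G6pc, which releases glucose, at -0.27 (SE 0.18), and Alb, at 0.35 (SE 0.35). Their median difference was 0.083. Glul, the pericentral glutamine synthetase gene, was at -0.27 (SE 0.27). Of 8 osmolyte and cell volume genes on the array 5 were tested, and again none was called or had an unadjusted p below 0.05, with 3 higher and 2 lower in mthr-/-. The 2 lower were the water channel gene Aqp8, at -0.14 (SE 0.086), and Slc6a6, the taurine carrier, at -0.059 (SE 0.073). The 3 higher were Slc6a12, at 0.004 (SE 0.030), Slc5a3, at 0.015 (SE 0.025), and Aqp1, at 0.016 (SE 0.036). Aqp8 (array index 74) and Arg1 (array index 61) lie in the stretch with lost spots on mthr-/- 1, and their differences include that array.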

How the data were processed

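Liver RNA of 7 mthr-/- and 7 wild type mice was measured on 1 array each, per the labels. Total RNA was copied into cDNA with a single fluorescent nucleotide from oligo-dT primers, per the labels' protocols. The deposited array files hold the intensity of 4 spots per oligonucleotide and of their local background on a linear scale, per the file headers. They also hold columns that the authors scaled. Spots blank there took part in background correction and normalization, and were left out of the averages and the detection limits. The deposited table of the authors' comparison gives medians and the log10 of their ratio, per the file headers. The sources used here do not give the scanner, the software or the scaling.

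Spots were background corrected by normexp (offset 50) in limma 3.58.1 with R 4.3.3, quantile normalized, and averaged per oligonucleotide as log2 values. Oligonucleotides detected on at least 7 of 14 arrays were tested, 139 of 284, with lmFit and eBayes (two-sided) without covariates, with Benjamini-Hochberg adjustment and a threshold of 0.05. The procedure was tested on simulated data. Correlations used 100000 permutations, or all permutations for 7 or fewer animals. All genes named other than the connexins were fixed lists or the 5 most alike. The members, lists, tests and the detection limit were chosen with earlier results of these data known. The animals are separate per their titles. Animal numbers were not treated as pairs. Deviations of same-numbered arrays correlated from -0.24 to 0.37, which cannot settle pairing, since differently numbered arrays were not set beside them. Gene names came from RefSeq through the accession for 191 oligonucleotides. The number of arrays limits the precision. No column lacked a sample.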

Additional observations from a re-analysis of the deposited data

Results flagged for a closer look

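The spots of block 1 on mthr-/- 1, which the authors had blanked and which entered no value reported as the level of this array, held signal for both connexins. The Gjb1 spot read 151.0 and the Gjb2 spot 51.0 after background subtraction, above the limit of 6.08 set by the plant control spots of that array. The spots used read 4 and 2 for Gjb1 and 0 and 0 for Gjb2. With the block 1 spots in their place, the log2 normalized values of mthr-/- 1 were 7.53 and 7.08, and the difference of Gjb1 minus Gjb2 on that array was 0.45. Which of the blocks holds the level of that liver was not tested.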

How the results depend on the processing

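No alternative brought the genotype difference of either connexin past the threshold, with limma's adjusted p between 0.102 and 0.983 for Gjb1 and between 0.102 and 0.996 for Gjb2. For Gjb1, 30 of 32 alternatives kept the direction. It turned with slide series as a block, to -0.094, and with that block and without mthr-/- 1, to -0.034. For Gjb2, 26 of 32 kept it. Without normalization and with reference gene centring, the median of all tested oligonucleotides shifted by 0.81 and 0.40, and the cause was not tested. In these settings the Gjb2 difference turned to 0.835 and 0.431. It also turned, by less than 1 SE from 0, to 0.00056 with blanked spots kept, 0.032 with mthr-/- 1 read from its block 1 spots, 0.030 without wild type 1 and 0.022 without mthr-/- 1. Leaving out 1 animal at a time gave 0.019 to 0.145 for Gjb1 and -0.050 to 0.030 for Gjb2. Calls over all oligonucleotides were 0 except for 1 without normalization. The ratio difference moved to 0.30 with plain background subtraction floored at 1 and to 0.43 in the deposited value table, and the cause was not tested. It was 0.157 (SE 0.054) without wild type 6, mthr-/- 1 and mthr-/- 6, 0.147 (SE 0.067) with the block 1 spots, and 0.106 on the arrays that detected both genes, and ran from 0.056 to 0.123 without 1 animal at a time. The sex difference turned for Gjb1 to 0.114 with median centring, and for Gjb2 to 0.086 with median centring, 0.020 with cyclic loess and 0.0034 with the block 1 spots. Series A minus B of Gjb1 passed the threshold at 0.342 with the block 1 spots and at 0.310 without wild type 6, mthr-/- 1 and mthr-/- 6, and ran from 0.112 to 0.324 without 1 animal at a time. For Gjb2 it turned to -0.155 with plain subtraction and to -0.042 without wild type 1. It was at most 0.135 without 1 animal at a time, 0.178 without normalization and 0.174 without wild type 6, mthr-/- 1 and mthr-/- 6. The correlation stayed positive at 0.598 to 0.955 in 29 alternatives, highest without normalization, with 0.757 to 0.861 without 1 animal at a time. In the smaller sets of animals given above, r ran from 0.208 in slide series B to 0.930 in wild type. It was 0.331 in mthr-/- without mthr-/- 1, and 0.446 without mthr-/- 1, wild type 6 and wild type 1. Animal numbers were not treated as pairs. With the replicate number as a block the genotype differences were 0.071 (SE 0.134) for Gjb1 and -0.015 (SE 0.088) for Gjb2, and calls stayed at 0. Reading mthr-/- 1 from block 1, joining the slide block with leaving it out, and taking the ratio only from arrays that detected both genes were chosen after seeing the data. On wild type 6 both genes were below the detection limit of 9.81, so that limit bounds their intensity there. Their values, 4.00 for Gjb1 and 2.25 for Gjb2 before normalization, are no bounds, and the fits and correlations used them as measured. On mthr-/- 1 the spots used were below the limit but the blanked block 1 spots above it. Neither the values nor the limit of mthr-/- 1 are therefore a bound on the level of that liver.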
